A study of Mus musculus with 6 samples.

Results

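The genes described here make, use, cleave and oxidise fatty acyl-CoA: acyl-CoA synthetases and thioesterases, the carnitine shuttle, acyl-CoA dehydrogenases, the enzymes of the mitochondrial beta-oxidation cycle, the electron transfer flavoproteins and the enzymes of ketone body use. They were chosen by name as a list of 50 genes in 9 roles, with earlier results of these data known. Of the 50, 47 were measured, among 19937 genes in all. Each gene was read from the probe set that carried its symbol alone. Acsl1 had none in the annotation used here, and Acsl3 and Cpt1b were named only on probe sets that also carried a second gene's symbol, so these 3 were not analysed here.

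Whole-kidney RNA of 6 samples was hybridised to an Affymetrix array each, 3 from NICD1 mice and 3 from littermate wild-type controls. NICD1 mice have the genotype Pax8rtTA TREICNotch1, a pair of transgenes with which the intracellular piece of Notch1, its signalling form, can be switched on in the epithelium of the kidney tubule. The control mice are labelled as having a normal genotype. The inducing agent, the length of induction, and the age and sex of the mice are not given in the sources used here. The series title concerns Notch signalling in clear cell renal cancer, a tumour of tubule origin. Notch1 itself was 12.4-fold higher in NICD1 kidneys (3.63 log2, adjusted p = 1.52e-07), from a probe set that does not tell transgene and endogenous transcript apart. Nothing in the labels says how the samples were paired or scanned. The p-values set the difference between the groups against the spread within the groups of these 6 samples.

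A fatty acid enters metabolism once a synthetase has joined it to coenzyme A. Long-chain acyl-CoA is carried into the mitochondrion as acylcarnitine, and a repeated cycle of dehydrogenation, hydration, a further dehydrogenation and thiolysis then removes acetyl-CoA. Acyl-CoA dehydrogenases pass their electrons through the electron transfer flavoproteins to the respiratory chain, and thioesterases release the free acid from acyl-CoA again. The proximal tubule, the segment that reabsorbs most of the filtered solute, is known to burn fatty acids as its main fuel.

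Fatty acyl-CoA genes were lower in NICD1 kidneys in 8 of the 9 roles, with all levels read on the authors' log2 scale. Of the 47 measured, 40 fell, 2 rose and 5 did not pass at an adjusted p under 0.05 in limma's moderated test, over all 19937 genes. Those are 85.1% lower and 4.26% higher, beside 14.9% lower and 17.8% higher among all genes tested. As the list was chosen with earlier results known, these shares were not put to a test. The median difference over the 47 genes was -1.40 log2 (NICD1 minus control), and that over all genes was 0.015. Of the 40 that fell, 32 were at least 2-fold lower, 68.1% of those measured, where 5.3% of all genes were called and at least 2-fold lower. The falls ranged from 1.32-fold for Hadha to 30.6-fold for Acsm2, and 11 were 4-fold or more.

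The groups did not overlap for any of the 42 called genes. All 3 NICD1 arrays lay below all 3 control arrays for 40 genes, or 85.1%, and above them for 2, where 19.7% and 23.7% of all genes did so. The gap between the highest NICD1 and the lowest control array ran from 0.13 log2 for Acot8 to 3.82 log2 for Acsm2. For these genes, arrays of 1 group differed more in NICD1 kidneys, with a median SD of 0.19 log2 per gene against 0.12 in controls. The NICD1 SD was the larger one for 33 of the 47 genes, a share not computed for all genes. Over the whole array, NICD1 arrays also correlated less with each other (r of 0.986 to 0.990) than control arrays did (0.991 to 0.993). As these are whole kidneys, fewer cells of a type and less RNA per cell cannot be told apart.

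**Figure D1:**
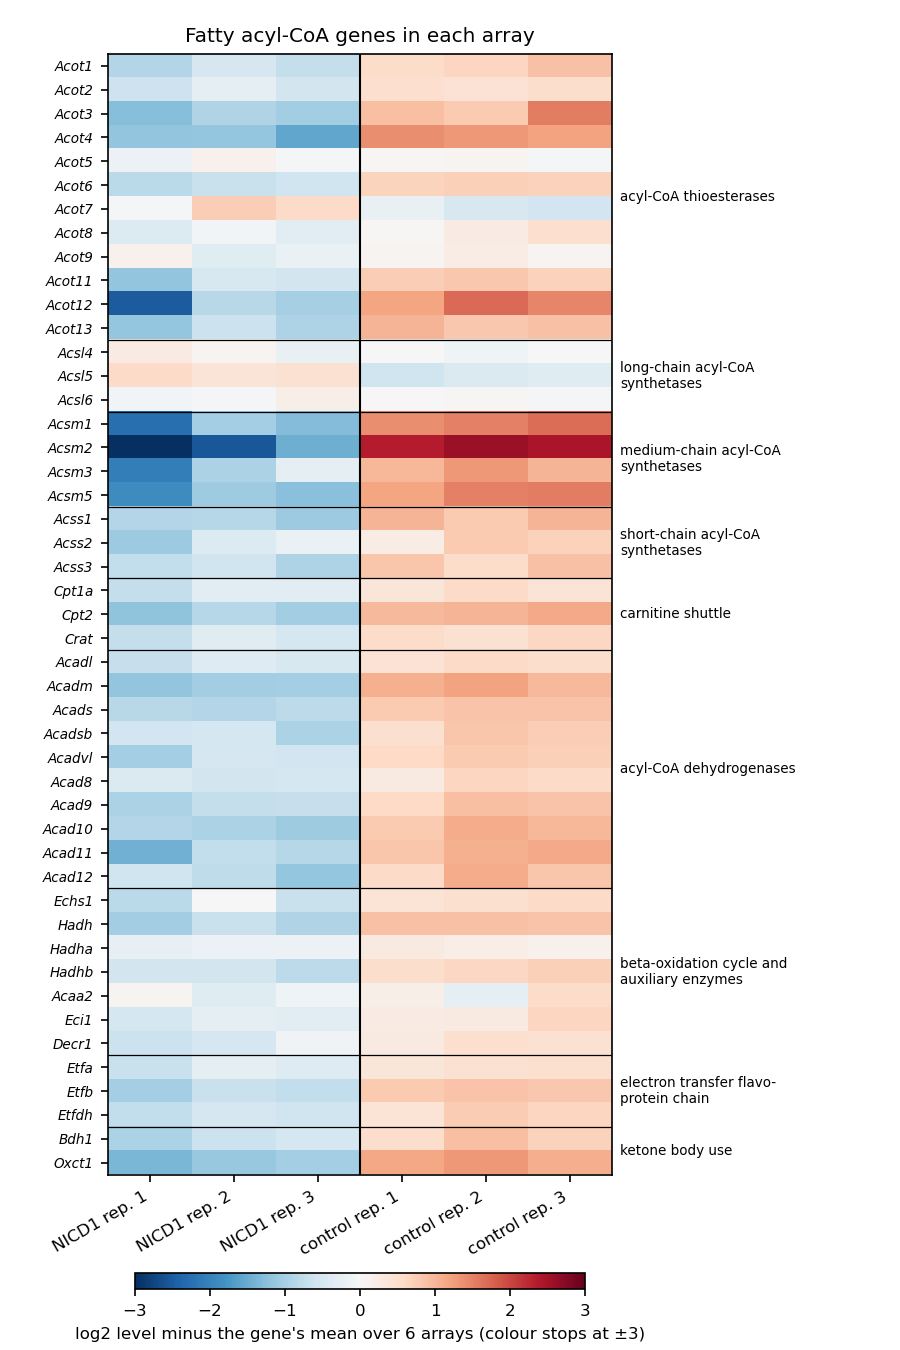
Heat map of the 47 measured genes (rows, grouped by role) in 3 NICD1 and 3 control arrays (columns). Colour gives the log2 level minus the gene's own mean over the 6 arrays. Blue fills the NICD1 side for the 40 genes that fell, deepest for Acsm2, while Acot7 and Acsl5 run the other way.

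NICD1 replicate 1 stood lowest for most of these genes. Of the 40 that fell, it was the lowest NICD1 array for 31 and the highest for 3, while replicate 2 was the highest for 25 and replicate 3 for 12. Median levels over the 47 genes were 7.15, 7.44 and 7.49 log2 in NICD1 replicates 1 to 3, against 8.64, 8.81 and 8.88 in the control replicates. Leaving that array out kept the counts at 40 lower and 2 higher, with a median difference of -1.29 log2.

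Markers of the proximal tubule moved with these genes. All 14 measured of 15 listed fell, with a median of -3.85 log2, and their summed linear level was 1892, 3135 and 3493 in NICD1 replicates 1 to 3, against 26243, 27957 and 27754 in the control replicates. The phosphate transporter Slc34a1 (-4.73 log2), the lactate transporter Slc5a12 (-2.63) and the endocytic receptor Lrp2 (-2.61) were the brightest of them. Macrophage markers moved the opposite way, with 9 of 10 higher, with a median of 1.87 log2, and summed to 2998, 1658 and 1587 in NICD1 replicates 1 to 3, against 376, 388 and 420 in the control replicates. NICD1 replicate 1 was thus lowest for the fatty acyl-CoA genes and the proximal tubule sum and highest for the macrophage sum. Among NICD1 arrays it was also highest for the loop and distal tubule, collecting duct, podocyte and fibroblast sums, but not for the adipocyte sum. The part of proximal tubule cells or macrophages in the falls was not tested.

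Markers of other cells that a whole kidney holds shifted in both directions. Of 7 loop of Henle and distal tubule markers, 5 were lower and 1 higher, with a median of -2.38 log2. Their sum, 6300 to 6659 in NICD1 and 8928 to 9610 in control kidneys, was in NICD1 kidneys mostly Umod, the uromodulin gene, which was the 1 that rose (0.32 log2), while the transporters Slc12a3 and Slc12a1 differed by -2.38 and -2.71. Collecting duct markers (6 of 8 lower, 1 higher, median -1.77 log2) summed to 638 to 1217 in NICD1 and 1551 to 1636 in control kidneys. Podocyte markers (2 of 4 measured lower, 1 higher, median -0.52) summed to 168 to 213 in NICD1 and 319 to 362 in control kidneys. Fibroblast markers (4 of 6 higher, median 0.73) summed to 1397 to 2118 in NICD1 and 506 to 589 in control kidneys. Adipocyte markers, which would show fat attached to the kidney, summed to 130 to 173 in NICD1 and 122 to 185 in control kidneys, and 0 of 7 passed in either direction in limma (0 also had an unadjusted p under 0.05). No detection calls are given, and the array scale has no true 0, so absence of a marker could not be read. The part of these cells in the falls was not tested either.

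**Figure D2:**
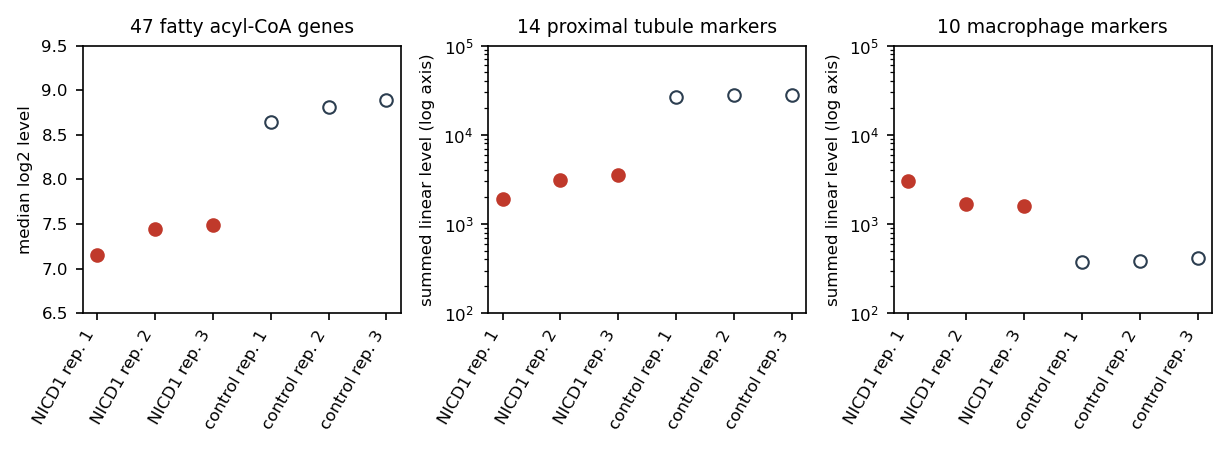
Median log2 level over the 47 fatty acyl-CoA genes (left), and summed linear levels of 14 proximal tubule (middle) and 10 macrophage markers (right), in each NICD1 and control array. NICD1 replicate 1 is lowest in the first 2 panels and highest in the third.

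Medium-chain and short-chain acyl-CoA synthetases fell. All 4 medium-chain (Acsm) genes and all 3 short-chain (Acss) genes fell, and of the 3 measured long-chain (Acsl) genes 1 rose and 2 did not pass. With 2 of the 5 listed long-chain genes not analysed, the roles were not tested against each other. Acsm enzymes activate medium-chain and aromatic acids in the mitochondrial matrix, and in the kidney they are known from the proximal tubule. Acsm2 had log2 levels of 5.81, 6.66 and 7.75 in NICD1 replicates 1 to 3, against 11.57, 11.81 and 11.65 in control replicates 1 to 3. The mean was 6.74 ± 0.97 in NICD1 and 11.68 ± 0.12 in control kidneys (SD, n = 3), a 30.6-fold fall (-4.94 log2, SE 0.39, adjusted p = 1.36e-05). NICD1 arrays were thus spread over almost 2 log2 units and all lay more than 3 units below every control. Acsm1 stood at 4.95, 6.20 and 5.90 in NICD1 kidneys, against 8.60, 8.72 and 8.88 in control kidneys (-3.05 log2, SE 0.27, adjusted p = 2.84e-05). Acsm5 read 5.17, 6.01 and 5.81 in NICD1 kidneys, against 8.25, 8.59 and 8.60 in control kidneys (-2.82 log2, SE 0.20, adjusted p = 8.69e-06). Acsm3, first described as a gene linked to blood pressure in rats, had 7.82, 8.95 and 9.62 in NICD1 kidneys, against 10.89, 11.21 and 10.92 in control kidneys (-2.21 log2, SE 0.37, adjusted p = 0.00131). In all 4 genes NICD1 replicate 1 was the lowest array, and in Acsm2 and Acsm3 replicate 3 was the highest. Without NICD1 replicate 1 the difference of Acsm3 was -1.72 log2, and without replicate 3 it was -2.62.

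The 4 Acsm genes lie in the order Acsm5, Acsm2, Acsm1 and Acsm3 on mouse chromosome 7. Between Acsm2 and Acsm1 lie 2 other annotated genes, and between Acsm1 and Acsm3 lie 6. The 4 genes share similar coding sequence, so probes may partly read more than 1 of them. Their promoter windows, 250 bases before to 50 after the annotated start, are in RefSeq's table for GRCm38.p6. The letters TGGGAA, on either strand, form the core of sites bound by RBPJ, the protein through which Notch acts on DNA. They were found in at least 1 window of each of the 4 Acsm genes. A second window of Acsm2, at chr7:119561458-119561757, does not hold them. Among all 32851 mouse promoter windows 25.6% hold these 6 letters, and among the 50 windows of 42 of the listed genes 13, or 26.0%, do. Counted once a gene, the shares are 28.6% of the listed genes and 28.3% of all genes with a window. Acsm2 and Acsm1 are shown as the members of the cluster with the largest falls, on the plus strand at chr7:119554090-119554389 and chr7:119617562-119617861. Capitals mark TGGGAA and, in Acsm1, also AGGTCA, the core element of nuclear receptor sites, on either strand.
Acsm2: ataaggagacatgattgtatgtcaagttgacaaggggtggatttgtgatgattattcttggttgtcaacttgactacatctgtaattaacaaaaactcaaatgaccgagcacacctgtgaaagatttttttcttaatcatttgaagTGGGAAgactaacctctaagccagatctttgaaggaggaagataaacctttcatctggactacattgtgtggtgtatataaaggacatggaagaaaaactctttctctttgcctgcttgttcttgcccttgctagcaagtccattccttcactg
Acsm1: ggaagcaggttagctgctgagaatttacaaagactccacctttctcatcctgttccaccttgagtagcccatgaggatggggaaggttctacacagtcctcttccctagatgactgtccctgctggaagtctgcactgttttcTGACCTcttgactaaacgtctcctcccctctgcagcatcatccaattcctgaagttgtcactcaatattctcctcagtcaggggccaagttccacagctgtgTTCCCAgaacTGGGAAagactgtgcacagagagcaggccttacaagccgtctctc

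Among short-chain synthetases, Acss1 makes acetyl-CoA from acetate in mitochondria and Acss2 in the cytosol and nucleus, while Acss3 is a mitochondrial enzyme that acts best on propionate. Acss1 stood at 7.01, 7.04 and 6.79 in NICD1 kidneys, against 8.91, 8.68 and 8.92 in control kidneys (-1.89 log2, SE 0.12, adjusted p = 3.83e-06). The groups were narrow and about 2 log2 units apart. Acss3 averaged 6.09 ± 0.16 in NICD1 and 7.60 ± 0.18 in control kidneys (SD, n = 3 each; -1.52 log2, SE 0.13, adjusted p = 2.33e-05). Acss2 was more spread, with 8.15, 8.84 and 9.06 in NICD1 kidneys, against 9.48, 10.04 and 9.94 in control kidneys (-1.13 log2, SE 0.23, adjusted p = 0.00447), and NICD1 replicate 1 lay lowest.

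No long-chain synthetase was called lower. Acsl5, found on mitochondria and endoplasmic reticulum and best known from the intestine, was 1 of the 2 genes that rose, at 8.89, 8.71 and 8.77 in NICD1 kidneys, against 7.72, 7.87 and 7.96 in control kidneys. All 3 NICD1 arrays were higher than every control array, a 1.91-fold rise (0.94 log2, SE 0.11, adjusted p = 0.000139). Acsl4, which prefers arachidonic acid and is known for its part in ferroptosis, had 7.32, 7.16 and 6.85 in NICD1 kidneys, against 7.08, 6.95 and 7.10 in control kidneys, and the groups overlapped (0.07 log2, SE 0.13, adjusted p = 0.756). The difference of Acsl4 changed sign to -0.051 after centring of arrays. Acsl6, known mainly from the brain, lay among the dim genes at 3.82, 3.84 and 4.08 in NICD1 kidneys, against 3.89, 3.93 and 3.87 in control kidneys (0.02 log2, adjusted p = 0.932).

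**Figure D3:**
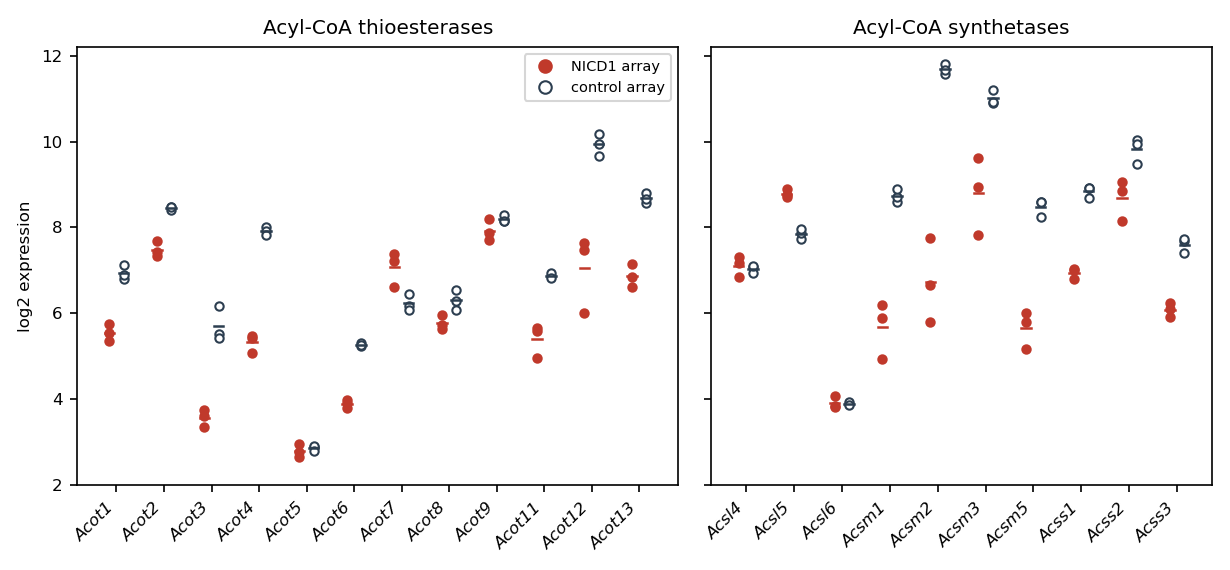
Log2 expression of 12 acyl-CoA thioesterases (left) and 10 acyl-CoA synthetases (right) in each NICD1 array (filled) and control array (open), with group means as short lines. Acot7 and Acsl5 are the 2 genes with all NICD1 arrays above all control arrays. Levels of different genes rest on different probes and are not comparable.

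Of the 12 acyl-CoA thioesterases, 9 fell, 1 rose and 2 did not pass. Acot12, a cytosolic enzyme that hydrolyses acetyl-CoA, had the largest fall, 7.41-fold, at 6.00, 7.65 and 7.49 in NICD1 replicates 1 to 3, against 9.67, 10.18 and 9.95 in control replicates 1 to 3 (-2.89 log2, SE 0.37, adjusted p = 0.000284). Its NICD1 arrays were far apart, with replicate 1 more than 1 log2 unit below the others, and the difference without it was -2.37 log2. Acot13, a small enzyme of the hotdog fold associated with mitochondria, stood at 6.62, 7.14 and 6.86 in NICD1 kidneys, against 8.80, 8.58 and 8.67 in control kidneys (-1.81 log2, SE 0.14, adjusted p = 1.37e-05). Acot11, known in mice as a regulator of fat burning in brown adipose tissue, read 4.96, 5.65 and 5.59 in NICD1 kidneys, against 6.87, 6.95 and 6.83 in control kidneys (-1.48 log2, SE 0.17, adjusted p = 0.000161).

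Acot1 to Acot6 are close paralogs clustered on mouse chromosome 12, in the order Acot2, Acot1, Acot4, Acot3, Acot5 and Acot6, with 1 other annotated gene between Acot1 and Acot4 and 1 between Acot5 and Acot6. Their sequences are much alike, so single values are uncertain to the extent that probes are shared. Of these 6, 5 fell and Acot5 did not pass. Acot4, a peroxisomal enzyme that hydrolyses succinyl-CoA in mice, stood at 5.43, 5.47 and 5.07 in NICD1 replicates 1 to 3, against 8.02, 7.92 and 7.83 in control replicates 1 to 3, a 6.04-fold fall (-2.60 log2, SE 0.13, adjusted p = 1.33e-06). Acot3, a peroxisomal long-chain thioesterase, had 3.36, 3.75 and 3.60 in NICD1 kidneys, against 5.53, 5.43 and 6.17 in control kidneys (-2.14 log2, SE 0.19, adjusted p = 3.16e-05), with control replicate 3 above the other controls. The groups stood far apart for both genes. Cytosolic Acot1 read 5.36, 5.75 and 5.53 in NICD1 kidneys, against 6.81, 6.90 and 7.14 in control kidneys (-1.40 log2, SE 0.13, adjusted p = 4.51e-05). Mitochondrial Acot2 read 7.34, 7.68 and 7.42 in NICD1 kidneys, against 8.48, 8.41 and 8.48 in control kidneys, a 1.97-fold fall (-0.98 log2, SE 0.11, adjusted p = 0.000156). Every NICD1 array lay below every control array for all 4. Acot6, peroxisomal in mice, had 3.79, 3.92 and 3.99 in NICD1 kidneys, against 5.25, 5.30 and 5.27 in control kidneys (-1.37 log2, SE 0.10, adjusted p = 8.49e-06). By their mean over all arrays, Acot3 and Acot6 were among the dimmest 40% of genes. Acot5 was dim in all arrays, at 2.66, 2.97 and 2.78 in NICD1 kidneys, against 2.88, 2.93 and 2.81 in control kidneys (-0.07 log2, SE 0.11, adjusted p = 0.728), and whether it was detected at all cannot be read from these values.

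The promoter window of Acot4 is shown because it is the only one among the listed genes that holds TGACCTTTG, an AGGTCA element on the other strand with an extended end, as nuclear receptors of fatty acid metabolism are known to bind. Of all promoter windows 0.478% hold these 9 letters on either strand. The plain AGGTCA element, which lies inside them, was found in 12 of the 50 windows of listed genes (24.0%) and in 16.3% of all windows. Some windows overlap: both windows of Acot3 and both of Acot5, which differ by a few bases, are among the 12. Counted once a gene, 10 of the 42 listed genes with a window hold it (23.8%), against 18.1% of all 27025 genes with a window. The full direct repeat, AGGTCA written in tandem with any 1 base between the copies, known as the consensus for PPAR-RXR heterodimers, was in 0 windows of listed genes and in 0.04% of all windows, and CAAAGTCCA, a site of HNF4A, was in 0 and in 0.475%. These counts describe 300-base windows only. The Acot4 window lies on the plus strand at chr12:84038129-84038428, and capitals mark TGACCTTTG.
Acot4: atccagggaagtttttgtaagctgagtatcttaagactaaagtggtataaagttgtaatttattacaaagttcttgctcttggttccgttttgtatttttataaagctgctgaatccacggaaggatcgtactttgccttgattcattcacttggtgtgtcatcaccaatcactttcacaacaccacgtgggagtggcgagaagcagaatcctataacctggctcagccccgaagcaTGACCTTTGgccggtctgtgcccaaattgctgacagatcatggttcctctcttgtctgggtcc

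The thioesterase that rose was Acot7, a cytosolic acyl-CoA hydrolase known mainly from the brain. It stood at 6.62, 7.38 and 7.22 in NICD1 replicates 1 to 3, against 6.44, 6.18 and 6.08 in control replicates 1 to 3, a 1.79-fold rise (0.84 log2, SE 0.19, adjusted p = 0.00804). NICD1 replicate 1 lay only just above the highest control, and the difference was 1.07 log2 without that array. Acot8, a peroxisomal enzyme of broad chain-length range, had 5.63, 5.96 and 5.74 in NICD1 kidneys, against 6.09, 6.29 and 6.55 in control kidneys (-0.53 log2, SE 0.14, adjusted p = 0.0168). Its call as lower was lost without NICD1 replicate 1 (-0.46 log2, adjusted p = 0.0514) and without control replicate 3 (-0.41 log2, adjusted p = 0.0661), with a range of 0.00663 to 0.0661 over all alternatives. Acot9, a mitochondrial enzyme, did not pass, at 8.21, 7.71 and 7.87 in NICD1 kidneys, against 8.16, 8.30 and 8.15 in control kidneys (-0.27 log2, SE 0.14, adjusted p = 0.173). Leaving out NICD1 replicate 1, which stood within the control range, gave -0.41 log2 for Acot9 (adjusted p = 0.0255), and array weights gave -0.37 (adjusted p = 0.0431), out of a range of 0.0255 to 0.575 over all alternatives.

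All 3 measured genes of the carnitine shuttle fell. Cpt2, the inner-membrane transferase that turns acylcarnitine back into acyl-CoA, stood at 6.58, 6.95 and 6.76 in NICD1 replicates 1 to 3, against 8.77, 8.81 and 8.92 in control replicates 1 to 3, a 4.2-fold fall (-2.07 log2, SE 0.12, adjusted p = 2.78e-06). Cpt1a, the outer-membrane transferase that commits long-chain acyl groups to oxidation and is inhibited by malonyl-CoA, had 8.59, 8.97 and 8.99 in NICD1 kidneys, against 9.65, 9.87 and 9.71 in control kidneys (-0.89 log2, SE 0.13, adjusted p = 0.000657). Its difference was -0.52 log2 after quantile normalization. Crat, which handles acetyl and other short groups, read 7.69, 8.05 and 7.87 in NICD1 kidneys, against 8.96, 8.86 and 9.04 in control kidneys (-1.08 log2, SE 0.12, adjusted p = 0.000113). The groups were apart for each of the 3, and NICD1 replicate 1 was the lowest array in all of them.

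The 10 acyl-CoA dehydrogenases all fell, between 2-fold and 4.48-fold, with a median of -1.62 log2. Acadm, the medium-chain enzyme whose loss is the best known inherited defect of fatty acid oxidation, stood at 9.53, 9.66 and 9.68 in NICD1 replicates 1 to 3, against 11.79, 11.92 and 11.67 in control replicates 1 to 3. Its mean was 9.63 ± 0.08 in NICD1 and 11.79 ± 0.12 in control kidneys (SD, n = 3; -2.17 log2, SE 0.11, adjusted p = 1.33e-06). Acads, for short chains, had 7.30, 7.25 and 7.34 in NICD1 kidneys, against 8.91, 8.99 and 8.98 in control kidneys (-1.66 log2, SE 0.09, adjusted p = 2.55e-06), and its groups were the tightest of the dehydrogenases. The very-long-chain enzyme Acadvl read 7.09, 7.59 and 7.53 in NICD1 kidneys, against 8.70, 8.89 and 8.82 in control kidneys (-1.40 log2, SE 0.14, adjusted p = 6.86e-05), and the long-chain enzyme Acadl read 8.03, 8.34 and 8.24 in NICD1 kidneys, against 9.14, 9.29 and 9.25 in control kidneys (-1.02 log2, SE 0.11, adjusted p = 0.000106). From short to very long chains these differences were -1.66, -2.17, -1.02 and -1.40 log2, in no steady order. The long-chain and very-long-chain enzymes fell less than the short-chain and medium-chain ones, and the genes were not tested against each other.

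The window before Acadm is shown as that of the dehydrogenase with the largest fall, on the minus strand at chr3:153944594-153944893 in GRCm38.p6, with AGGTCA on either strand in capitals.
Acadm: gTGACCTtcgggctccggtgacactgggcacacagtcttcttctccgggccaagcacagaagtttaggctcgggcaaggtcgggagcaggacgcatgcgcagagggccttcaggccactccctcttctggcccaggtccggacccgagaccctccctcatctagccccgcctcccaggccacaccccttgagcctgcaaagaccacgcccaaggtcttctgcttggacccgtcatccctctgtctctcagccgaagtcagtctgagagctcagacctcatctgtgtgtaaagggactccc

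The remaining dehydrogenases act on branched or unusual acyl groups or have other tasks. Acad11 and Acad10, which act in the breakdown of hydroxylated fatty acids, differed by -2.03 and -1.92 log2 (adjusted p = 3.08e-05 and 3.87e-06). Acad10 stood at 5.92, 5.84 and 5.71 in NICD1 kidneys, against 7.56, 7.90 and 7.78 in control kidneys. Acad12, its neighbour on chromosome 5, differed by -1.67 log2 (adjusted p = 7.75e-05). Acad9, also an assembly factor of respiratory complex I, had 7.06, 7.27 and 7.30 in NICD1 kidneys, against 8.60, 8.90 and 8.86 in control kidneys (-1.58 log2, SE 0.12, adjusted p = 1.18e-05). The enzymes of isoleucine and valine breakdown, Acadsb and Acad8, differed by -1.38 and -1.0 log2 (adjusted p = 7.57e-05 and 0.000172). None of the 10 lost its call in any alternative run.

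**Figure D4:**
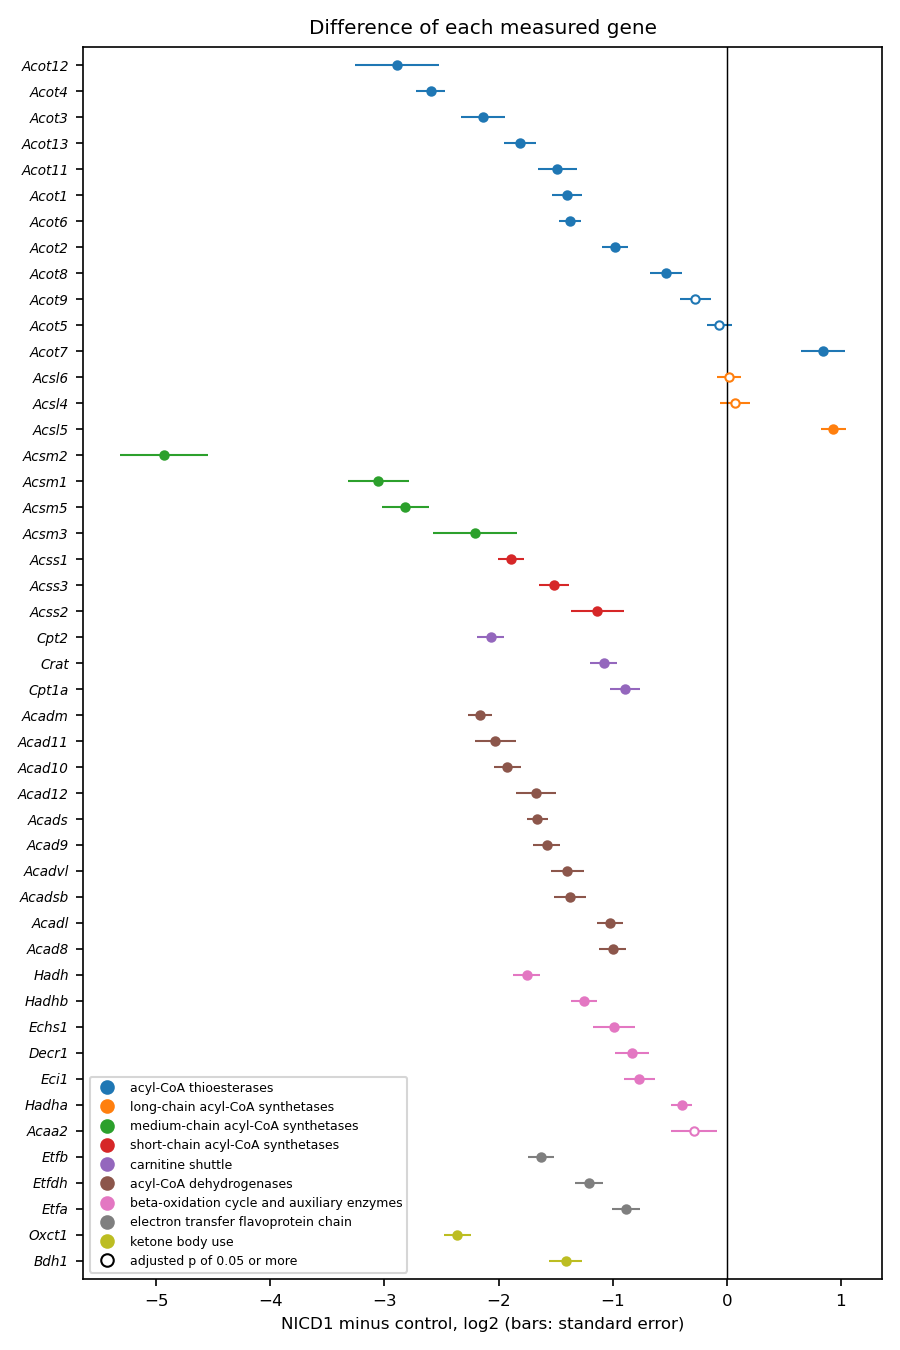
Difference between NICD1 and control kidneys (log2, point) with its standard error (bar) for the 47 measured genes, sorted within each role. Filled points passed at an adjusted p under 0.05. The 4 Acsm genes reach from -2.21 to -4.94, the 10 dehydrogenases lie between -2.17 and -1.0, and 2 points that passed, Acot7 and Acsl5, lie right of 0.

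Enzymes of the cycle itself also fell, 1.32-fold for the smallest called change and 3.37-fold for the largest. Of 7 genes for the cycle and its auxiliary steps, 6 fell and Acaa2 did not pass, with a median of -0.83 log2. Hadh, the hydroxyacyl-CoA dehydrogenase for medium and short chains, stood at 9.03, 9.41 and 9.18 in NICD1 replicates 1 to 3, against 10.97, 10.97 and 10.95 in control replicates 1 to 3, a 3.37-fold fall (-1.75 log2, SE 0.12, adjusted p = 5.27e-06). Echs1, the short-chain enoyl-CoA hydratase, had 7.76, 8.56 and 7.91 in NICD1 kidneys, against 8.99, 9.05 and 9.15 in control kidneys (-0.99 log2, SE 0.19, adjusted p = 0.00285), with NICD1 replicate 2 above the other NICD1 arrays. Acaa2, the mitochondrial thiolase, had 8.55, 8.10 and 8.33 in NICD1 kidneys, against 8.64, 8.19 and 9.01 in control kidneys (-0.29 log2, SE 0.20, adjusted p = 0.343). Its control arrays were widely spread and overlapped the NICD1 arrays. The difference of Acaa2 was -0.50 log2 without control replicate 2 (adjusted p = 0.069), -0.092 without control replicate 3 and -0.18 without NICD1 replicate 2, and adjusted p ranged from 0.069 to 0.847 over all alternatives. Decr1 and Eci1, which handle double bonds of unsaturated fatty acids, differed by -0.83 and -0.77 log2 (adjusted p = 0.00193 and 0.00179). Decr1 read -0.50 log2 after quantile normalization.

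Hadha and Hadhb encode the 2 subunits of the trifunctional protein, which carries out the last 3 steps of the cycle for long chains. Hadha holds the hydratase and dehydrogenase, and Hadhb the thiolase. Hadhb stood at 8.14, 8.15 and 7.91 in NICD1 kidneys, against 9.21, 9.32 and 9.42 in control kidneys (-1.25 log2, SE 0.11, adjusted p = 2.92e-05). Hadha had 8.63, 8.69 and 8.71 in NICD1 kidneys, against 9.15, 9.07 and 9.01 in control kidneys (-0.40 log2, SE 0.10, adjusted p = 0.0106), the smallest fall among the 40 genes. After quantile normalization the call of Hadha was lost (-0.12 log2, adjusted p = 0.414), and adjusted p ranged from 0.00224 to 0.414 over all alternatives run. The 2 genes are head-to-head neighbours on chromosome 5, with annotated starts 273 bases apart and promoter windows that overlap by 228 bases. The Hadhb window is shown for this shared stretch, plus strand, chr5:30155003-30155302 in GRCm38.p6. None of the 5 motifs searched was found in it.
Hadhb: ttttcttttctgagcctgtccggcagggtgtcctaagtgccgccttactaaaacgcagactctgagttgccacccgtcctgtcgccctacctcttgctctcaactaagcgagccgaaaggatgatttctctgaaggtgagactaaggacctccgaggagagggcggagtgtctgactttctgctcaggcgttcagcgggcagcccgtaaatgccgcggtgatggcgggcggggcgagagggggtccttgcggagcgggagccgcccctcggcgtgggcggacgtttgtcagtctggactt

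The electron transfer flavoproteins, which collect electrons from all acyl-CoA dehydrogenases, fell with them. Etfb, the smaller subunit, stood at 8.02, 8.38 and 8.31 in NICD1 kidneys, against 9.83, 9.90 and 9.85 in control kidneys (-1.63 log2, SE 0.12, adjusted p = 8.11e-06). Etfa, its partner in the heterodimer, read 8.88, 9.29 and 9.17 in NICD1 kidneys, against 9.92, 10.02 and 10.04 in control kidneys (-0.88 log2, SE 0.12, adjusted p = 0.000479), or -0.48 log2 after quantile normalization. Etfdh, the membrane enzyme that hands the electrons to ubiquinone, differed by -1.21 log2 (SE 0.12, adjusted p = 6.96e-05). No array of either group crossed over in these 3 genes.

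Both genes of ketone body use fell. Oxct1, which activates acetoacetate at the expense of succinyl-CoA and is the key step of ketone body use outside the liver, stood at 7.92, 8.13 and 8.25 in NICD1 replicates 1 to 3, against 10.45, 10.57 and 10.36 in control replicates 1 to 3. The mean was 8.10 ± 0.17 in NICD1 and 10.46 ± 0.11 in control kidneys (SD, n = 3), a 5.14-fold fall (-2.36 log2, SE 0.12, adjusted p = 1.47e-06). Bdh1, which interconverts hydroxybutyrate and acetoacetate, averaged 7.38 ± 0.21 in NICD1 and 8.79 ± 0.20 in control kidneys (SD, n = 3 each; -1.41 log2, SE 0.14, adjusted p = 6.61e-05).

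Neighbouring pathways were read from 9 further lists with 81 measured genes, of which 56 fell, 8 rose and 17 did not pass. Among all genes tested, 14.9% were called lower and 17.8% higher. All 12 measured genes for propionyl-CoA and branched-chain acyl-CoA fell (median -1.55 log2), among them Auh (-1.63), which acts in leucine breakdown, and Pcca (-1.58) and Mmut (-1.53) of the propionate route. Of 14 genes of peroxisomal oxidation, 13 fell, 0 rose and 1 did not pass (median -1.27). Nudt19, a peroxisomal enzyme that degrades coenzyme A, stood at 7.39 ± 0.10 in NICD1 and 10.89 ± 0.15 in control kidneys (SD, n = 3; -3.50 log2). The bifunctional enzyme Ehhadh differed by -3.52 log2 and the fatty acyl-CoA importer Abcd3 by -1.45. Acat1 and Bdh2, the 2 measured genes of ketone body synthesis and acetoacetyl-CoA handling, differed by -1.86 and -1.95 log2, and both passed.

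Calls went in both directions among genes of fatty acid uptake and of malonyl-CoA control. These lists are short, and 17.8% of all genes tested were called higher. Of 12 genes of fatty acid uptake and binding, 5 fell, 2 rose and 5 did not pass. The fatty acid receptor Cd36 had the largest fall (-5.20 log2, SE 0.18, adjusted p = 1.85e-07). It stood at 5.29, 5.53 and 5.08 in NICD1 replicates 1 to 3, against 10.15, 10.82 and 10.52 in control replicates 1 to 3. The transporter Slc27a1 rose by 1.37 log2, and the peroxisomal acyl-CoA binding protein Acbd5 differed by -0.99. Of the other listed Slc27a genes, Slc27a2 (-1.47 log2) and Slc27a4 (-0.33) were called lower and Slc27a5 did not pass. In carnitine transport and synthesis 3 of 4 fell, namely Aldh9a1 (-2.36 log2) of carnitine synthesis, the plasma membrane carnitine transporter Slc22a5 (-2.08) and the mitochondrial carrier Slc25a20 (-0.82). In malonyl-CoA control 2 of 5 fell, 1 rose and 2 did not pass. The malonyl-CoA decarboxylase Mlycd and the AMP-activated kinase subunit Prkaa2 differed by -1.14 and -0.83 log2, and the other catalytic subunit Prkaa1 by 0.42.

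Genes of lipid droplets and lipolysis and regulators of fatty acid oxidation mostly fell, while those of fatty acid synthesis were called in both directions. For comparison, 14.9% of all genes tested were called lower and 17.8% higher. Of 12 genes of lipid droplets and lipolysis, 8 fell, 1 rose and 3 did not pass, and those with the lowest p were the monoacylglycerol lipase Mgll (-2.74 log2), the triglyceride synthase Dgat2 (-2.44) and the lipoprotein lipase Lpl (-2.18). Fatty acid synthesis and desaturation had 3 lower, 4 higher and 3 not passed of 10. Its desaturase paralogs were called in opposite directions, Scd2 at 9.84 ± 0.43 in NICD1 and 7.61 ± 0.24 in control kidneys and Scd1 at 7.61 ± 0.39 in NICD1 and 9.22 ± 0.30 in control kidneys (SD, n = 3 each; 2.23 and -1.62 log2), and the elongase Elovl1 differed by -0.94. Of 10 transcription factors and coactivators of fatty acid oxidation, 8 fell, 0 rose and 2 did not pass. The largest falls were those of Ppara (-1.35 log2, adjusted p = 0.00187 in limma) and Hnf4a (-1.33 log2, adjusted p = 0.00235). Nr1h3, a sterol-sensing nuclear receptor, differed by -1.14 log2, Esrra, a regulator of mitochondrial genes, by -0.94, and Rxra, the shared partner of PPAR receptors, by -0.83.

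**Figure D5:**
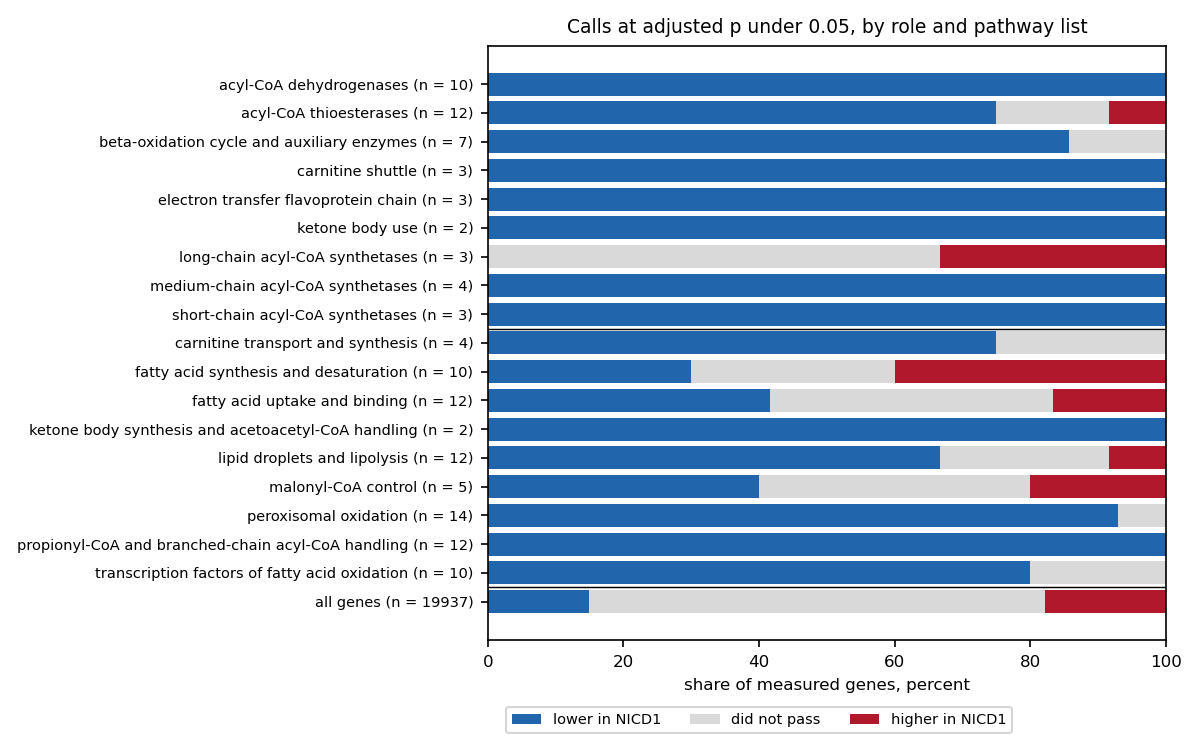
Share of measured genes called lower, not passed or called higher in NICD1 kidneys, for the 9 roles (top), 9 further pathway lists (middle) and all 19937 genes (bottom). Among the 9 roles the long-chain synthetases are the one with no gene called lower.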

How the data were processed

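Gene expression was measured in 6 whole kidneys, 3 NICD1 and 3 control, on Affymetrix arrays. Per the labels' protocols, the authors extracted RNA with TRIzol, labelled it with the one-cycle kit and normalized the arrays in GeneSpring with RMA16. The deposited values are log2 expression per probe set. RMA is known to compress differences of dim genes. Array medians over the 19937 genes read still differed, at 5.38 to 5.41 log2 in NICD1 and 5.26 to 5.29 in control arrays. Centring and quantile normalization were run as alternatives. No GeneSpring version, detection calls or scan batches are given in the sources used here, and the number of arrays limits the precision.

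Symbols came from the platform annotation. The table held 34760 probe sets, 21640 with 1 symbol and 1321 with several, and the probe set with the highest mean stood for each of 19937 genes. Each of the 47 measured genes had 1 probe set that carried its symbol alone. The annotation also names Acsm2 on a probe set shared with another gene's symbol, ND6, which was not read. limma 3.58.1 in R 4.3.3 compared the groups (lmFit, eBayes, two-sided, no covariate), called at a Benjamini-Hochberg adjusted p under 0.05 over all 19937 genes. No filter on low values was used in the main test. With the dimmest 40% of genes left out, 43 of the 47 remained. Acot3, Acot5, Acot6 and Acsl6 were dropped, so the 38 lower calls of that run do not include Acot3 and Acot6. The procedure was tested on simulated data.

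The genes and lists were chosen with earlier results of these data known. Values in every array were due, by rule, for the genes that rose, the 10 largest falls, the lowest p of each role and Acot1 to Acot6, and others were added after their values were seen. Further lists name up to 3 genes by lowest p, and marker lists by highest mean. Ppara, Hnf4a and the Slc27a genes other than Slc27a1 were added after their values were seen. Promoters came from RefSeq's table for GRCm38.p6, with a window for 42 of the 50 genes, and the TGGGAA and CAAAGTCCA searches were added later.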

Additional observations from a re-analysis of the deposited data

How the results depend on the processing

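The counts of 40 lower and 2 higher fatty acyl-CoA genes changed little under the alternatives run: mean over probe sets, quantile normalization, array weights, a test without the dimmest 40% of genes, centring on array medians, trended and robust variance, an adjusted p threshold of 0.01, a replicate block and leaving out each array. Lower calls numbered 38 to 41 and higher calls 2 throughout, and the median difference ranged from -1.52 (centring) to -1.29 log2 (without NICD1 replicate 1). Centring moved the median of all genes from 0.015 to -0.11 and the calls over all genes from 3551 higher and 2978 lower to 2594 and 3990. Differences of 3 genes that did not pass changed sign: Acot5 without NICD1 replicate 1 (0.0047; range over single arrays left out -0.15 to 0.0047), Acsl4 after centring (-0.051) and without NICD1 replicate 1 (-0.033; range -0.033 to 0.20), and Acsl6 after quantile normalization (-0.012), centring (-0.10), array weights (-0.015) and without NICD1 replicate 3 (-0.067; range -0.067 to 0.065). Quantile normalization moved the differences of the called genes Cpt1a, Decr1, Etfa and Hadha by over 1.5 times and ended the call of Hadha. Among genes that did not pass it also moved Acot9 (-0.12) and Acaa2 (-0.069) by over 1.5 times, and the cause was not tested. With the replicate number as a block, 40 genes were lower and 2 higher, and 2762 and 3219 over all genes. Deviations of same-numbered arrays correlated at -0.069, -0.012 and -0.070, so the numbers were not taken to pair the samples.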
